A study of Mus musculus with 6 samples.

Results

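Genes for the enzymes that make leukotrienes, lipoxygenase products and prostaglandins were followed in mouse bone marrow neutrophils sorted by their membrane potential. The family was taken by name, 10 genes of 41388 in the count files, and was chosen by the level difference of the lipoxygenase gene Alox15, which had been found higher in depolarized cells of these same libraries. The differences of all 10 genes come from that same contrast and are given as a description, without p-values; the count of genes called is printed once, beside that of all genes, and supports nothing.

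The cells came from C57BL/6 mice, took up DiBAC4(3) at 250 nM, an anionic dye that enters cells as they depolarize, and received the calcium ionophore ionomycin at 100 nM. Between 2 and 4 minutes later, 20000 depolarized and 20000 polarized cells were sorted from the stimulated suspension, so both groups carry the dye and the stimulus and no unstimulated library was analysed here. Each group has 3 libraries, joined into 3 biological replicate pairs by a code in the titles, called pairs A, B and C in the order of the codes. The sources used here do not give the number of mice behind a library. A run label in the titles reads 1 for the depolarized library of pair B and 2 for the other 5, and its meaning is not given.

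Libraries held 16904969 to 20381489 counts. Defining neutrophil genes were abundant in all 6, with 8 mature markers such as S100a8, Ly6g and Cxcr2 summing to 161559 to 181121 CPM (counts scaled to a common library total) in depolarized and 181953 to 221974 CPM in polarized libraries. S100a8 made up much of these sums, and 0 of the 8 were called by edgeR in either direction. Csf3r ran the other way, at 2191 to 2403 CPM in depolarized and 1496 to 1680 CPM in polarized libraries. Cxcr2 was also fitted above 0 (log2 fold change 0.11), and the others below 0. All 9 markers of the early neutrophil stage, among them Mpo and Elane, were lower in depolarized cells. They summed to 1100 to 2368 CPM in depolarized and 2754 to 5468 CPM in polarized libraries. EdgeR called all 9 lower, against 0.241% of all genes tested. The list was chosen with earlier results of these data known, so nothing is read from that count. In bulk libraries such as these, fewer cells of a type and less RNA per cell cannot be told apart. Scaling by the trimmed mean of M values (TMM) shifted log2 differences of abundant genes by a median of 0.06 (pair A), -0.04 (pair B) and -0.23 (pair C). Differences are thus relative to the bulk of genes in their pair. The scaled differences within pairs also carry a prior count of 2, which shrinks those of genes with few counts. For Alox15 in pair A the log2 difference was 5.03 before and 4.77 after both steps.

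As background, cytosolic phospholipase A2 frees arachidonic acid from membranes when calcium rises. Arachidonate 5-lipoxygenase, helped by its activating protein, turns it into leukotriene A4, which becomes the neutrophil attractant leukotriene B4 or a cysteinyl leukotriene. Cyclooxygenases turn arachidonic acid into prostaglandin H2, the precursor of prostaglandins and thromboxane, and other lipoxygenases add oxygen at other positions, as Alox15 does. Neutrophils are a major source of leukotriene B4.

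The cyclooxygenase genes make the sharpest pair within the family, since both enzymes form prostaglandin H2 while Ptgs1 is known as constitutive and Ptgs2 as inducible. The 250 bases before the start of each are shown with those of Alox5, the gene of the enzyme that begins leukotriene synthesis, from the RefSeq promoter table in GRCm38.p6 coordinates, 5′ to 3′ on the gene's own strand. The Ptgs2 stretch is chr1:150099781-150100030 (plus strand), that of Ptgs1 is chr2:36230176-36230425 (plus strand) and that of Alox5 is chr6:116461179-116461428 (minus strand). Capitals mark matches to 5 motifs, searched on both strands and chosen after the sequences had been seen.
Ptgs2: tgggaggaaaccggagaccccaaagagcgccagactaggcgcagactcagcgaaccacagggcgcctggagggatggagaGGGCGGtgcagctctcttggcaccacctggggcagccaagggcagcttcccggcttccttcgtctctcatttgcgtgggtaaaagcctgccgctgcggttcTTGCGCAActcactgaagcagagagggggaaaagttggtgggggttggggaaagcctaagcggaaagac
Ptgs1: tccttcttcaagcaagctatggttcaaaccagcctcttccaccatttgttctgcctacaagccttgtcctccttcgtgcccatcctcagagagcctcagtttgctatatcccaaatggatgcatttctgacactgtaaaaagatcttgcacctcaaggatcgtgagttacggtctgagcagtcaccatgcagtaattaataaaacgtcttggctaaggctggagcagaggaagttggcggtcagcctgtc
Alox5: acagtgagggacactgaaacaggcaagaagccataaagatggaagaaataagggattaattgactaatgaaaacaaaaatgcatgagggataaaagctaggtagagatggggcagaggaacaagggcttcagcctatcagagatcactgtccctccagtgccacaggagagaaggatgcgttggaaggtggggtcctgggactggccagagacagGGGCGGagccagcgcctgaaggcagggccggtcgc
The Ptgs2 stretch held 1 match to the palindrome TTGCGCAA, a form bound by C/EBP factors, which 0.164% of the 32851 stretches in the table hold. It also held 1 match to the GC box GGGCGG, as did the Alox5 stretch, a motif present in 32.7% of all stretches. No match to the cAMP response element core TGACG (17.8% of stretches), the E-box CACGTG (6.02%) or the sequence TATAAA (12.4%) lay in these windows, and the Ptgs1 stretch held none of the 5. These matches describe letters only. The windows end at the annotated start of each gene and bases past it were not searched, so a missing match holds for the windows alone. Promoter entries were found for 8 of the 10 genes, without Alox15 and Alox5ap.

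Levels within the family lay far apart. Per length and averaged over all 6 libraries, Alox5ap was at 5105 ± 463 RPKM (CPM divided by gene length in kilobases; SD, n = 6), Pla2g7 at 454 ± 105 RPKM, Alox5 at 190.0 ± 18.8 RPKM and Lta4h at 37.5 ± 8.60 RPKM. Ptgs2 followed at 32.4 ± 12.4 RPKM, Ptgs1 at 10.9 ± 1.16 RPKM, Alox15 at 4.11 ± 3.57 RPKM and Pla2g4a at 3.86 ± 0.522 RPKM. Ptges, at 0.925 ± 0.243 RPKM, and Ltc4s, at 0.398 ± 0.269 RPKM, were lowest. The highest levels belonged to Alox5ap, Pla2g7 and Alox5, and the terminal synthases of prostaglandin E2 and leukotriene C4 came last. These levels use the lengths listed with the counts. Exon bases in GENCODE M21 were more for Lta4h (6102 against 2066 listed), Alox5ap (1420 against 852) and Ltc4s (1014 against 736), and equal for the other members. Levels per length of those genes, and the place of Lta4h, therefore depend on the length used.

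The ranges of some neighbours in this order overlapped. Lta4h lay above Ptgs2 in 3 of 6 libraries, Alox15 above Pla2g4a in 3 of 6, Ptgs1 above Alox15 in 5 of 6 and Ptges above Ltc4s in 6 of 6. The ranges of Alox5ap, Pla2g7, Alox5 and Lta4h did not overlap from one to the next. Among the 9971 genes kept for the test, the mean of Alox5ap stood above 99.9%, that of Alox5 above 97.7%, that of Alox15 above 59.3% and that of Ptges above 29.0%.

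**Figure D1:**
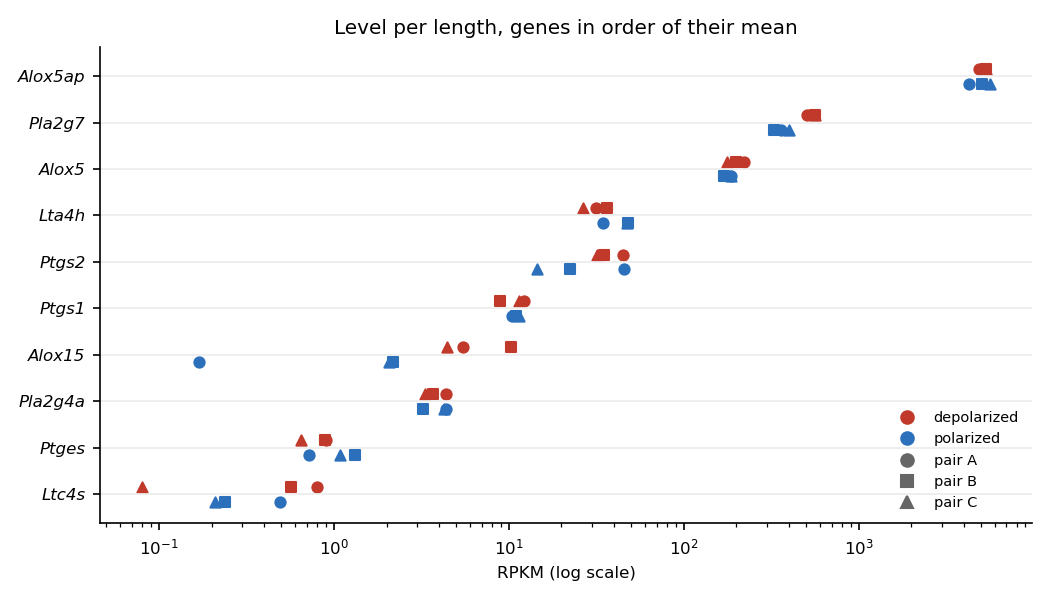
Level of the 10 genes in RPKM (log axis), with 3 depolarized libraries above and 3 polarized libraries below each line and a marker shape for each pair. Alox5ap averaged 5105 RPKM and Ltc4s 0.398 RPKM, and the widest spread within a gene belonged to Alox15, from 0.169 to 10.3 RPKM.

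Alox15 (ENSMUSG00000018924, chromosome 11, 70344152 to 70352031 in GRCm38, minus strand) encodes a lipoxygenase that in mouse forms mainly hydroperoxy acids oxygenated at carbon 12. It was at 13.5, 25.3 and 10.9 CPM in depolarized cells of pairs A, B and C, against 0.414, 5.34 and 5.05 CPM in polarized cells. Every depolarized library lay above every polarized one, and the polarized library of pair A stood lowest, with 8 counts. The means were 16.6 ± 7.65 CPM in depolarized and 3.60 ± 2.76 CPM in polarized cells (SD, n = 3 each).

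The size of the Alox15 difference varied widely between pairs. By CPM, depolarized cells held 32.6 times the polarized level in pair A, 4.73 times in pair B and 2.17 times in pair C. The 95% counting intervals (exact binomial) of these ratios were 16.3 to 76.2, 3.77 to 5.99 and 1.69 to 2.80, so the pairs differed by more than counting error. With the pairs as a block, edgeR fitted a log2 fold change of 2.37 ± 0.47 (SE), and 1.56, 2.58 and 3.07 without pairs A, B and C. The depolarized library of pair B, which alone carries the other run label, held the highest Alox15 level.

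**Figure D2:**
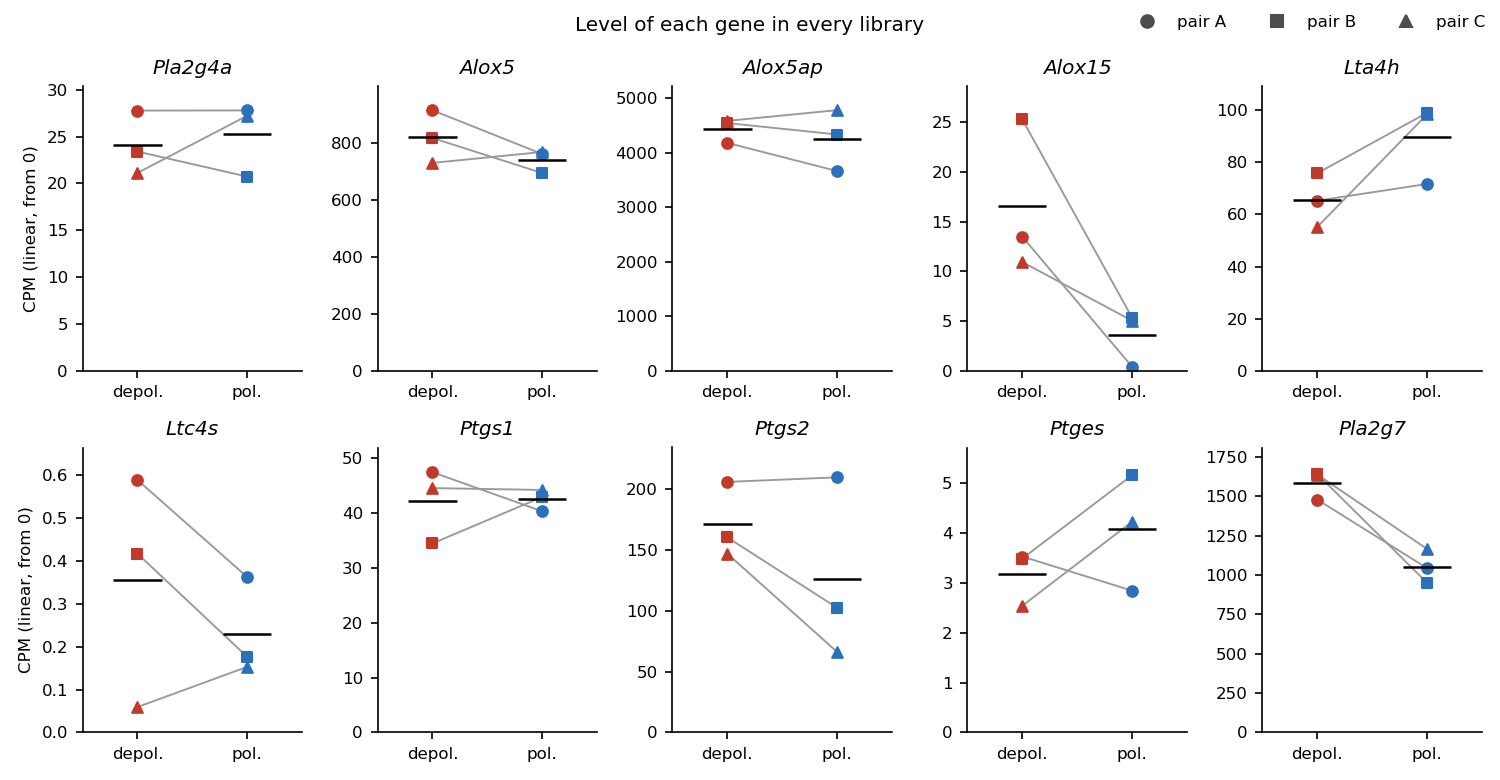
CPM of each gene in every library on linear axes from 0, with depolarized cells left of polarized cells, grey lines joining the libraries of a pair and black bars at the group means. Alox15 and Pla2g7 are the genes whose groups do not overlap: Alox15 was at 10.9 CPM or more in depolarized and at 5.34 CPM or less in polarized libraries.

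Alox15 is a known transcript of mouse eosinophils and of some resident macrophages, so their markers are given beside it. All 9 eosinophil markers had counts, and they summed to 75.8, 211 and 61.3 CPM in depolarized and 52.1, 496 and 208 CPM in polarized libraries, again by pair. Within each group the libraries stood in the same order by this sum and by Alox15 CPM, with pair B highest in both groups. Pair C was lowest in depolarized and pair A in polarized cells. In polarized cells pairs B and C were close in Alox15, at 91 and 99 counts, so their order there is not resolved. Between groups the orders differed: in pairs B and C the sum was lower in depolarized than in polarized cells, while Alox15 was higher. Prg2 made up much of the sum, and the other 8 markers summed to 39.2, 74.8 and 43.1 CPM in depolarized and 30.1, 107 and 59.0 CPM in polarized libraries. By this smaller sum pair A, not pair C, was lowest in depolarized cells, so the order there no longer matched that of Alox15. Of the 8 eosinophil markers tested, 0 passed by edgeR. The granule gene Epx had a log2 fold change of -2.17 ± 0.52 (SE, edgeR adjusted p 0.123). Prg2, which encodes the major basic protein, had one of -1.37 ± 0.49 (edgeR adjusted p 0.464). Prg3 (-1.77 ± 0.47), Ear2 (-0.59 ± 0.25) and Ear6 (-0.67 ± 0.43) were also fitted below 0, and Ear1 (0.23 ± 0.41) above 0. The receptor genes Ccr3 (0.66 ± 0.26) and Siglecf (0.59 ± 0.24) were fitted above 0 and lay above 0 in 3 of 3 pairs, each with an edgeR adjusted p of 0.603. Il5ra, the eosinophil interleukin-5 receptor gene, was at 0 in all polarized libraries and at 2, 12 and 5 counts in the depolarized ones.

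The 10 macrophage markers summed to 157, 115 and 116 CPM in depolarized and to 127, 121 and 101 CPM in polarized libraries. Without Adgre1, the most abundant of them, the other 9 summed to 27.4, 11.5 and 10.6 CPM in depolarized and 23.3, 62.1 and 27.7 CPM in polarized libraries. No macrophage marker was at 0 in a group, and 0 of 10 passed the edgeR test. Basophil and mast cell markers other than Hdc summed to between 2.75 and 6.20 CPM, and platelet markers to at most 2.60 CPM in depolarized and 2.88 CPM in polarized libraries. Monocyte markers summed to 816 to 903 CPM in depolarized and 896 to 1175 CPM in polarized libraries, mostly Ly6c2. Without it the direction turned, with 168, 168 and 159 CPM in depolarized and 115, 105 and 115 CPM in polarized libraries. Nearly all of that remainder was Csf1r, at 157 to 168 CPM in depolarized and 102 to 112 CPM in polarized libraries. Of the others, Ccr2 (10 against 77 counts), Irf8 (15 against 64), F13a1 (32 against 116) and Ms4a6c (2 against 51) were lower in depolarized cells. Cx3cr1 (27 against 9) was higher. Lymphocyte markers summed to 19.6 to 25.4 CPM in depolarized and 25.5 to 31.5 CPM in polarized libraries. Of the 6 tested, 1 was called lower by edgeR, Nkg7, against 0.241% of all genes tested. It was at 0.0491, 0.0521 and 0.710 CPM in depolarized and 2.17, 2.64 and 11.7 CPM in polarized libraries. Without Nkg7 the ranges of the sums would overlap. Cd3d, the most abundant of the list, had a log2 fold change of 0.004 ± 0.21 (SE). The part of these cells, and that of the early neutrophil stage, in the Alox15 difference was not tested.

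**Figure D3:**
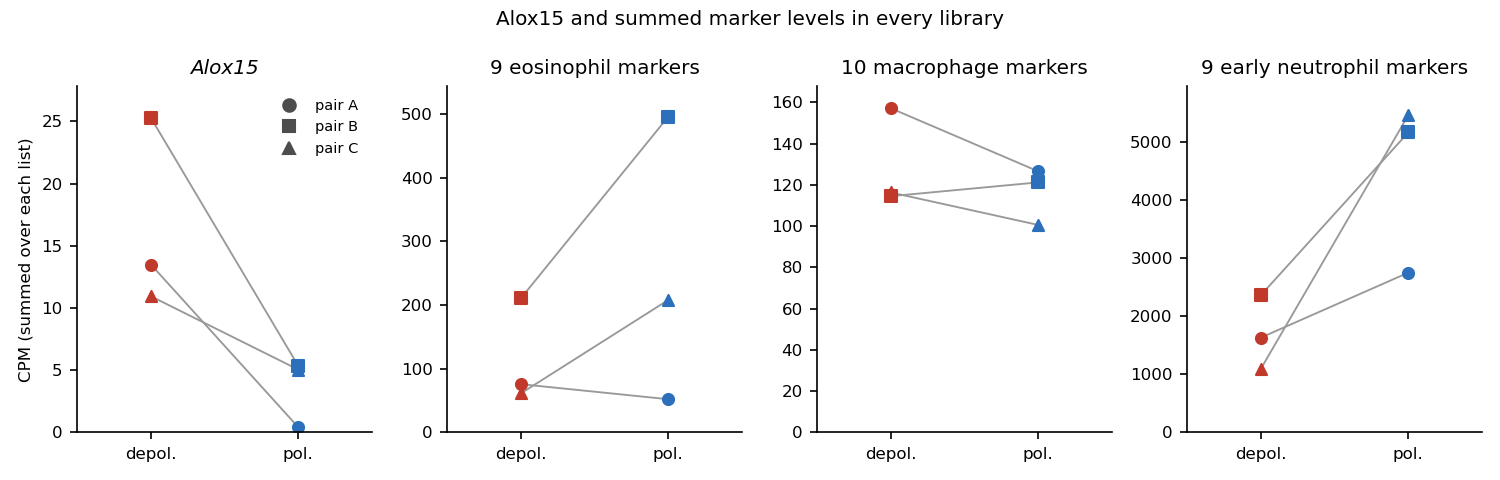
Alox15 in CPM and the summed CPM of 3 marker lists in each library, with depolarized cells on the left, polarized cells on the right and lines joining pairs. Within depolarized and within polarized cells, Alox15 and the eosinophil sum put the 3 libraries in the same order. Pair B was highest (25.3 and 211 CPM in depolarized, 5.34 and 496 CPM in polarized cells). For Alox15 in polarized cells pair C was close, at 5.05 CPM, so the order of pairs B and C there is not resolved. Without Prg2, the most abundant eosinophil marker, the order in depolarized cells no longer matched.

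The genes whose profile over the 6 libraries was most like that of Alox15 all had few counts. By the root mean square difference of gene-centred log2 CPM, the 5 nearest of 9962 genes were Ccdc14 (0.83), Gfi1b (0.89), 9430015G10Rik (0.92), Scfd2 (0.93) and Zfp563, where the median gene lay at 1.79. They held between 48 and 110 counts over all libraries, so likeness at this depth is weak.

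The enzymes of leukotriene synthesis proper showed small differences that ran both ways. Alox5 (chromosome 6, 116410077 to 116461178), which encodes arachidonate 5-lipoxygenase, was at 914, 816 and 729 CPM in depolarized cells of pairs A, B and C, against 760.2, 694 and 767 CPM in polarized cells. The groups overlapped, with depolarized cells above polarized cells in pairs A and B and below them in pair C. The fitted log2 fold change of Alox5 was 0.08 ± 0.19 (SE).

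Alox5ap (chromosome 5, 149265058 to 149288045) encodes the membrane protein that presents arachidonic acid to 5-lipoxygenase. It was at 4182, 4546 and 4585 CPM in depolarized cells and 3665, 4336 and 4782 CPM in polarized cells, with the same pattern over pairs as Alox5. Its fitted log2 fold change was -0.002 ± 0.19 (SE). A gene on the opposite strand, Gm19719, covers 13.3% of the exon bases of Alox5ap and has no counts listed. Per listed length, which for Alox5ap is shorter than its exon bases in GENCODE M21, Alox5ap stood 22.1 to 30.3 times above Alox5 in the 6 libraries.

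Lta4h (chromosome 10, 93453396 to 93484896) encodes the hydrolase that forms leukotriene B4. It was at 65.2, 75.7 and 55.1 CPM in depolarized cells, against 71.6, 98.9 and 98.3 CPM in polarized cells. Depolarized cells held less in 3 of 3 pairs, by -0.07, -0.42 and -1.06 on the log2 scale, though the highest depolarized library lay above the lowest polarized one. The fitted log2 fold change was -0.52 ± 0.20 (SE), with -0.25 without pair C and -0.74 without pair A. The RPKM ratio of Alox5 to Lta4h was 6.38 ± 0.85 in depolarized and 4.27 ± 0.95 in polarized libraries (SD, n = 3 each). This ratio uses the listed length of Lta4h (2066, against 6102 exon bases in GENCODE M21), so its size depends on the length used.

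Ltc4s (chromosome 11, 50236469 to 50238616), which encodes the synthase of leukotriene C4, was near the detection limit. It had 12, 8 and 1 counts in depolarized libraries and 7, 3 and 3 in polarized ones, too few to pass the filter on low counts. The ratio of the groups was 1.60 (95% counting interval by the exact binomial method 0.765 to 3.48), so these counts could not show a difference. A gene on the opposite strand, Gm26542, covers 26.4% of its exon bases and held 45 counts. Mgst2, whose product can also join glutathione to leukotriene A4, was far more abundant, at 68.9 ± 9.18 CPM in depolarized and 90.4 ± 5.10 CPM in polarized cells (SD, n = 3 each).

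Pla2g4a (chromosome 1, 149829618 to 149961290), the gene of cytosolic phospholipase A2, was at 27.8, 23.4 and 21.1 CPM in depolarized cells and 27.8, 20.7 and 27.2 CPM in polarized cells. The groups overlapped, and the fitted log2 fold change was -0.13 ± 0.21 (SE). Pla2g4a lies on chromosome 1 next to Ptgs2, with 138740 bases between the genes, which point away from each other. The antisense gene Ptgs2os held 215 counts over all libraries.

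The cyclooxygenase genes differed from each other in how much they varied. Ptgs1 (chromosome 2, 36230426 to 36252272) was at 47.4, 34.5 and 44.5 CPM in depolarized cells of pairs A, B and C and at 40.3, 42.9 and 44.2 CPM in polarized cells. Its groups overlapped and the fitted log2 fold change was -0.09 ± 0.19 (SE). In pair C the difference of Ptgs1 was 0.01 before and -0.22 after TMM scaling. Gm43621, on the opposite strand, covers 3.81% of the exon bases of Ptgs1 and has no counts listed.

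Ptgs2 (chromosome 1, 150100031 to 150108227) was at 206, 160.1 and 147 CPM in depolarized cells, against 209, 102 and 66.0 CPM in polarized cells. The polarized libraries of pairs B and C were the lowest of the 6, while the libraries of pair A were alike and highest. The log2 difference was 0.04 in pair A, 0.61 in pair B and 0.92 in pair C (-0.03, 0.65 and 1.15 before scaling), and the fitted value was 0.52 ± 0.19 (SE). That value was 0.77 without pair A and 0.32 without pair C. Per length, Ptgs2 stood 3.68, 3.94 and 2.79 times above Ptgs1 in depolarized libraries and 4.41, 2.02 and 1.27 times above it in polarized libraries.

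Ptges (chromosome 2, 30889471 to 30929863), the gene of the microsomal prostaglandin E synthase, was at 3.53, 3.49 and 2.54 CPM in depolarized cells and 2.85, 5.17 and 4.23 CPM in polarized cells. Depolarized cells were higher in pair A and lower in pairs B and C, and the fitted log2 fold change was -0.40 ± 0.34 (SE). These values rest on 182 counts over the depolarized and 226 over the polarized libraries.

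Pla2g7 (chromosome 17, 43568098 to 43612201) encodes the secreted hydrolase that inactivates platelet-activating factor, a lipid mediator of neutrophils. It was at 1479, 1641 and 1638 CPM in depolarized cells of pairs A, B and C, against 1044, 950.4 and 1165 CPM in polarized cells. The groups did not overlap, and depolarized cells were higher in 3 of 3 pairs, by 0.57, 0.75 and 0.26 on the log2 scale. The fitted log2 fold change was 0.53 ± 0.18 (SE), or 1.44-fold, between 0.42 and 0.66 without 1 pair. A gene on the opposite strand, 1700071M16Rik, covers 11.0% of the exon bases of Pla2g7 and held 4945 counts over all libraries, where Pla2g7 held 89329 in depolarized and 59201 in polarized ones. The sources do not say whether counting used strand, so reads from the shared part cannot be told apart.

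**Figure D4:**
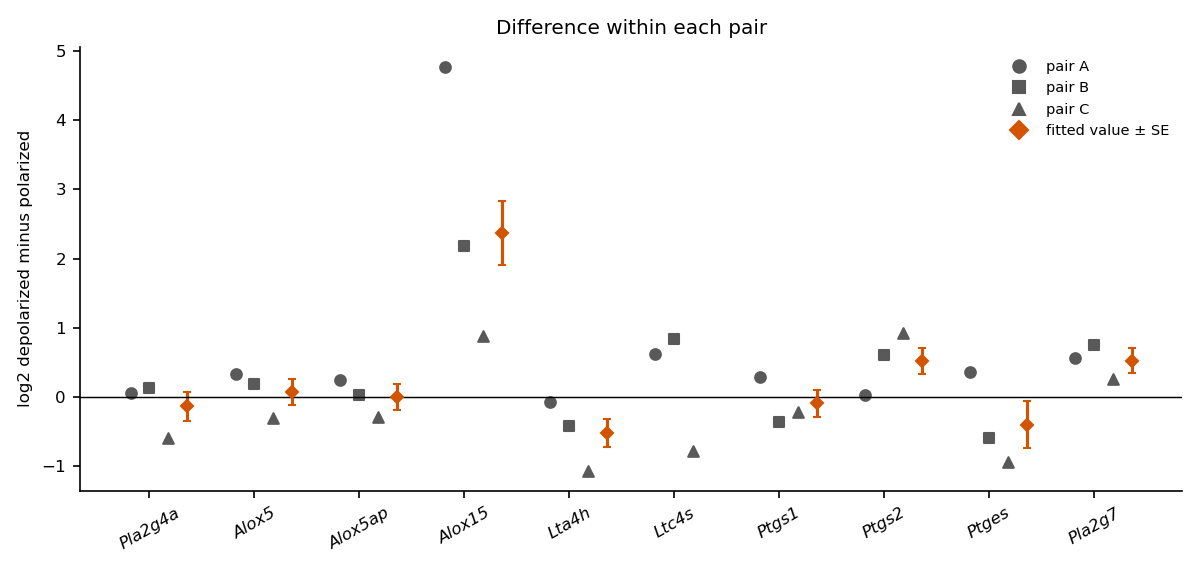
Log2 difference, depolarized minus polarized, of each gene in pairs A, B and C after TMM scaling, with a prior count of 2 (grey). Orange marks show the edgeR fitted value and its SE, and Ltc4s has no fitted value. Alox15, Ptgs2 and Pla2g7 lay above 0 in 3 of 3 pairs and Lta4h below 0 in 3 of 3.

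Of the 10 genes, 9 passed the filter on low counts. Of these, 1 was called higher by the edgeR quasi-likelihood test with adjustment over all genes (0.0802% of all genes tested were called higher and 0.241% lower), namely Alox15, whose value chose the family, and the other 8 were not called. In 2 of the 9 the groups did not overlap with depolarized cells higher, against 7.28% of all genes tested, and in 0 with polarized cells higher, against 3.14% (10.4% in either direction). Nothing is read from these shares, since the same contrast chose the family. The median log2 fold change of the 9 was -0.002, and that of all genes tested was also -0.002. Of these 9, 3 lay above 0 in every pair, 1 lay below 0 in every pair, and 5 changed sign between pairs.

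With all 3 pairs, none of the other genes of the pathway passed the test in either direction. Of 77 genes listed, 48 passed the filter and 0 were called higher and 0 lower by edgeR. An unadjusted edgeR p under 0.05 was found for 6 of the 48, and for 656 of all 9971 genes tested. DESeq2 with the same block also called 0. Without pair C, which leaves 1 residual degree of freedom, edgeR called 6, with Ggt5 and Ptgr2 higher and Mgst2, Mgll, Mboat7 and Ptger1 lower. Over all genes that setting called 500 higher and 518 lower, so nothing is read from the 6. With all 3 pairs, the median log2 fold change of the 48 was 0.03, with 25 of 48 above 0. For all genes tested it was -0.002, with 4949 of 9971 above 0. In all 7 role groups 0 members were called, so the genes below were named for their role and level.

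Among genes that handle arachidonic acid, Anxa1 encodes annexin A1, known as an inhibitor of phospholipase A2, and was at 5255 ± 1095 CPM in depolarized and 6740.2 ± 122 CPM in polarized cells (SD, n = 3 each). Its log2 fold change was -0.45 ± 0.21 (SE, edgeR adjusted p 0.744), below 0 in 3 of 3 pairs. The acyl-CoA synthetase genes Acsl1 (0.09 ± 0.17) and Acsl5 (0.03 ± 0.19) were fitted near 0. Cotl1, whose product binds 5-lipoxygenase, Mapkapk2, which encodes a kinase of 5-lipoxygenase, and Gpx4, which encodes a reductase of lipid hydroperoxides, had log2 fold changes of -0.09 ± 0.17, -0.05 ± 0.23 and 0.05 ± 0.18. The other lipoxygenase genes listed, Alox12, Alox12b, Alox8 and Aloxe3, did not reach the filter: Alox12 had 5, 2 and 5 counts in depolarized and 0, 5 and 0 in polarized libraries, and Alox8 had 0 in all 6.

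Among genes that convert or inactivate leukotrienes, the 3 with the highest RPKM were Mgst1, Cyp4f18 and Mgst2. Cyp4f18, which encodes a leukotriene B4 hydroxylase of mouse neutrophils, was at 2090.5 ± 228 CPM in depolarized and 1835 ± 82.3 CPM in polarized cells, a log2 fold change of 0.12 ± 0.18 (SE, edgeR adjusted p 1). The microsomal glutathione transferase gene Mgst1 was at 1907 ± 189 CPM in depolarized and 2369 ± 355 CPM in polarized cells, with -0.37 ± 0.19 (edgeR adjusted p 0.817). Mgst2 had a log2 fold change of -0.47 ± 0.18 (edgeR adjusted p 0.561), and both lay below 0 in 3 of 3 pairs.

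Ltb4r1, the high-affinity leukotriene B4 receptor gene, was at 65.7 ± 8.66 CPM in depolarized and 64.6 ± 25.4 CPM in polarized cells, a log2 fold change of 0.03 ± 0.19 (SE). Fpr2, which encodes a formyl peptide receptor that also binds lipoxin, was at 534 ± 69.4 CPM in depolarized and 642 ± 84.1 CPM in polarized cells, with -0.33 ± 0.18 (edgeR adjusted p 0.869). Gpr18, a G protein-coupled receptor gene, was at 1.57 ± 0.872 CPM in depolarized and 1.95 ± 1.19 CPM in polarized cells. Of the prostanoid receptor genes, Ptger2, a prostaglandin E2 receptor, had 0.12 ± 0.18, the prostacyclin receptor gene Ptgir -0.31 ± 0.24 and Ptger1 -0.23 ± 0.36.

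Among prostanoid synthases, the cytosolic prostaglandin E synthase gene Ptges3 was at 63.9 ± 1.02 CPM in depolarized and 59.4 ± 7.07 CPM in polarized cells (log2 fold change 0.04 ± 0.17, SE). The thromboxane synthase gene Tbxas1 had 0.20 ± 0.19 and Ptgr2, which encodes a prostaglandin reductase, 0.38 ± 0.23. In the platelet-activating factor group, the receptor gene Ptafr was at 1349 ± 155 CPM in depolarized and 937 ± 228 CPM in polarized cells, a log2 fold change of 0.48 ± 0.19 (SE, edgeR adjusted p 0.614), above 0 in 3 of 3 pairs like Pla2g7. Lpcat2, which encodes a synthase of platelet-activating factor, had 0.12 ± 0.19 and Pafah1b1, a subunit of the intracellular hydrolase, -0.13 ± 0.17.

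**Figure D5:**
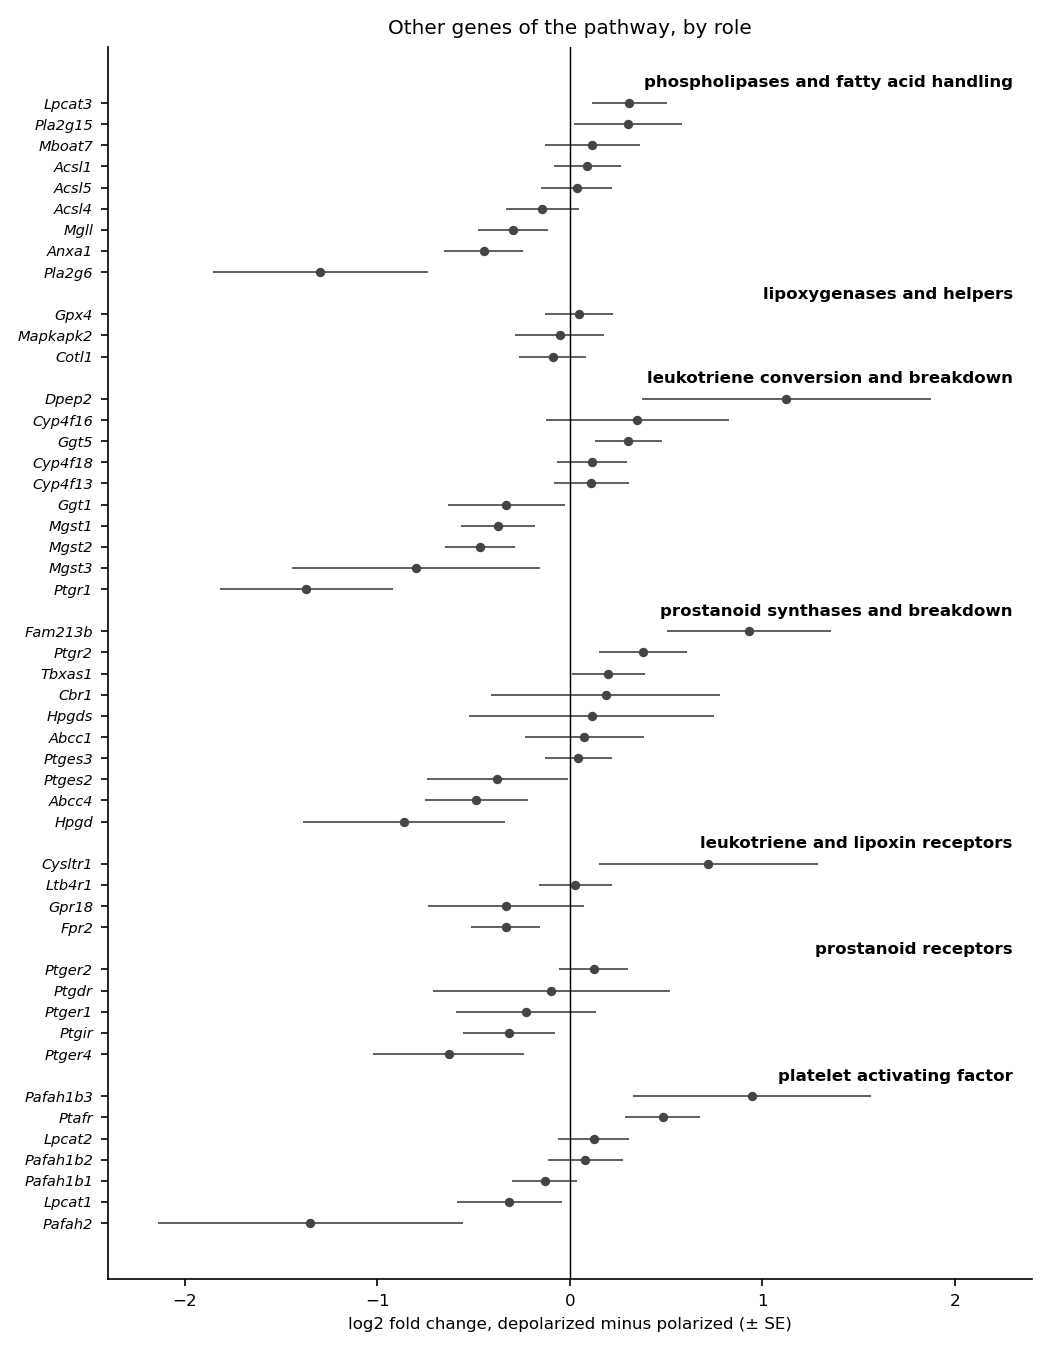
Log2 fold change, depolarized minus polarized, with its SE for the 48 tested genes of the wider pathway, by role. The values run from -1.37 (Ptgr1) to 1.12 (Dpep2), and 0 of 48 were called.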

How the data were processed

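RNA of 6 libraries was measured as counts per gene. Per the submitters' processing notes, the tools were STAR 2.0.4b, featureCounts 1.45, Subread and bcl2fastq, and the build GRCm38. The sources used here do not give the strand setting, the treatment of multi-mapped reads or the annotation. The deposited counts are whole numbers, not normalized. The deposited CPM values equal counts scaled to the library total, and the deposited RPKM values equal CPM per kilobase of the listed gene length. Symbols were matched for 40254 of 41388 genes, and Prxl2b was found under its older symbol.

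Counts of the 9971 genes kept by filterByExpr were scaled with TMM and tested with the edgeR 4.0.16 quasi-likelihood test in R 4.3.3, with the replicate code as a block (2 residual degrees of freedom) and Benjamini-Hochberg adjustment over all genes (threshold 0.05). Standard errors were obtained as |log2 fold change|/√F. Pairing rests on the design text. Deviations from the group means of libraries with the same code correlated across genes at 0.08, 0.27 and 0.03. Differences within pairs use log2 CPM with a prior count of 2. DESeq2 1.42.0, other filters and scalings, a robust fit, a length correction and each pair left out were alternatives. Libraries of a group differed by more than counting error. Intervals and the detection limit cover counting error only, because reads copied by PCR are not independent molecules.

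Members and lists were chosen with earlier results of these data known. Named genes are the 10 members, the genes called and the 3 highest by RPKM among those tested in each role group, and the 5 most like Alox15. Exon overlaps were taken from GENCODE M21.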

Additional observations from a re-analysis of the deposited data

How the results depend on the processing

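All 9 members tested stayed within 1 SD of their pair differences under all 10 alternatives, which says little. With 3 pairs, leaving 1 out moves a mean difference by less than that SD whatever the values. For Alox15 the SD was 1.98, and its fitted value ran from 1.56 to 3.07 with 1 pair left out. The call of Alox15, by which the family was chosen, was lost in 4 of the 10, with the robust fit, with DESeq2, with the length trend removed and without the block, and the cause was not tested. Alox5ap, fitted near 0, changed sign in 5 and Pla2g4a, Alox5 and Ptgs1 in 1 each. Over all genes, where 8 were called higher and 24 lower, leaving out the replicate block gave 0 and 0 (511 at an unadjusted p under 0.05), removing the length trend gave 0 and 8, DESeq2 gave 16 higher, and no filter gave 50 and 96. Leaving out 1 pair, with 1 residual degree of freedom, gave 9 to 500 higher, 36 to 518 lower and 0 to 6 genes of the wider pathway. The 500, the 518 and the 6 all came without pair C. Those 6 were Ggt5 and Ptgr2 higher and Mgst2, Mgll, Mboat7 and Ptger1 lower. Counting error was wide for Ltc4s, with 21 counts in depolarized and 13 in polarized libraries, and for Alox15 in pair A, with 8 counts in the polarized library.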
